A study of Mus musculus with 60 samples.

Results

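Regions of histone H3 lysine 9 acetylation (H3K9ac) that had a peak in the lumbar sensory ganglia after both kinds of axotomy, and none after either control operation, numbered 9560. They were chosen from 112171 regions, made by merging the deposited H3K9ac peak lists of 4 surgeries wherever peaks overlapped by at least 1 bp, and are called gained regions here. Presence or absence in a list chose them, so their presence is a description and not a finding. All animals were C57BL/6 mice 6 to 8 weeks old, and their L4 to L6 dorsal root ganglia were taken 24 h after surgery. Sciatic nerve axotomy (SNA) cut the peripheral branch of the sensory axons and had sham surgery on the nerve (Sham) as its control. Dorsal column axotomy (DCA) cut the central branch in the spinal cord and had laminectomy (Lam), which opens the vertebral arch, as its control, so that all animals had been operated on. Each mark and surgery had 2 immunoprecipitated samples of 10 pooled mice and each surgery had 3 ATAC-seq samples of 1 mouse, but the replicates of a condition were pooled into 1 list. No value below therefore has a replicate error, and no difference between surgeries could be tested.

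H3K9ac is placed by acetyltransferases such as the GCN5 and PCAF enzymes and removed by histone deacetylases, and it is found at active promoters and at many enhancers. H3K27ac marks active promoters and enhancers, H3K27me3 marks chromatin repressed by Polycomb, and ATAC-seq finds DNA that a transposase can reach. Sensory neurons of the ganglion are known to regrow a peripheral axon after injury and largely fail to regrow the central one, and PCAF and H3K9ac have been linked to that difference in earlier work. The ganglion also holds satellite glia, Schwann cells, macrophages, vessel cells and fibroblasts. In such whole tissue, a peak lost or gained through a change in the mix of cells and one through a change of the mark within a cell type cannot be told apart.

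The promoters below show what kinds of gene start lay in or beside a gained region. Cdca7, a chromatin-associated target of Myc, Stx6, a syntaxin of Golgi and endosome traffic, and Ing4, a chromatin reader in an acetyltransferase complex, are among the gene ends with the highest −log10 p in both lists. Apoa2, an apolipoprotein of high-density lipoprotein, is shown for its CpG-poor start, and Calca (the neuropeptide CGRP) and Trpv1 (the heat- and capsaicin-gated channel) as genes of sensory neurons. Each sequence is the RefSeq window from 250 bases before to 50 bases after the start on GRCm38.p6, 5′ to 3′ on the gene's strand, and capitals mark exact matches on either strand to CRE (TGACGTCA), AP-1 (TGACTCA), Sp (GGGCGG), E-box (CACGTG), ETS (CCGGAAG) or the TATA box (TATAAA). The windows lie at chr2:72475969-72476268 (+) for Cdca7, chr1:155158453-155158752 (+) for Stx6, chr6:125039598-125039897 (+) for Ing4, chr1:171221314-171221613 (+) for Apoa2, chr7:114636308-114636607 (−) for Calca and chr11:73233899-73234198 (+) for Trpv1.
Cdca7: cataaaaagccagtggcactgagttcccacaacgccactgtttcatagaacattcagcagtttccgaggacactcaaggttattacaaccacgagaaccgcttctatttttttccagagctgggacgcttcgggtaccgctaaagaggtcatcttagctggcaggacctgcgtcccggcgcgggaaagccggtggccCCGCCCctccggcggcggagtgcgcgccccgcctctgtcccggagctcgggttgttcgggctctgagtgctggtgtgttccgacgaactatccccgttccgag
Stx6: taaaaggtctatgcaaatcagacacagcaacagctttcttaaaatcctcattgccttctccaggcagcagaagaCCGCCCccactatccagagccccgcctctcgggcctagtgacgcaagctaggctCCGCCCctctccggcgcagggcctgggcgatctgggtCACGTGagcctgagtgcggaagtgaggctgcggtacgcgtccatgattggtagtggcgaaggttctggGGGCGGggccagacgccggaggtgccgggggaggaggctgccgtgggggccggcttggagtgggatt
Ing4: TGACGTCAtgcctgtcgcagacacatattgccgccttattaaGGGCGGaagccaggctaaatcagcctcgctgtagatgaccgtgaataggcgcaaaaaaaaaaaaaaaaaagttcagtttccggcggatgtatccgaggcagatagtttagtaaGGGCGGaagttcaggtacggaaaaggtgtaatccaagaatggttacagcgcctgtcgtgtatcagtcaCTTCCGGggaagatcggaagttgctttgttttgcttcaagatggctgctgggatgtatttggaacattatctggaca
Apoa2: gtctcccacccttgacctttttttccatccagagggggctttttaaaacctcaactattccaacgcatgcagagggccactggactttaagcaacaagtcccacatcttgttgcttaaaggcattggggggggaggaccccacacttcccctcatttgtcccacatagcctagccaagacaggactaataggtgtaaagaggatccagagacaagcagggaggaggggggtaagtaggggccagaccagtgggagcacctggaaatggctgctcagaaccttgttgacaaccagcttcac
Calca: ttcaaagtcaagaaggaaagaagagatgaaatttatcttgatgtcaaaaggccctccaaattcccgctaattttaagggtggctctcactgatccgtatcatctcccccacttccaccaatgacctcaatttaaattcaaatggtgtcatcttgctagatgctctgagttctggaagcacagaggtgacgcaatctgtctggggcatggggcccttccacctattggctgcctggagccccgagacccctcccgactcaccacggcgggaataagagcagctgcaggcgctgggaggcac
Trpv1: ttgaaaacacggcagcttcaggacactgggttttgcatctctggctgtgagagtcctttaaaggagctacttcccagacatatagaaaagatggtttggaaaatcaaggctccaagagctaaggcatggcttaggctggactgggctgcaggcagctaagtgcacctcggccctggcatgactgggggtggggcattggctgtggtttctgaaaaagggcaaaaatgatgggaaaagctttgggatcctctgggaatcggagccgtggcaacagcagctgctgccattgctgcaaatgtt
The gained region covered 100% of the windows of Cdca7 and Trpv1, 75.7% of that of Apoa2, 44.3% of that of Calca, 40% of that of Ing4 and 16.7% of that of Stx6. The windows held 26 CpG dinucleotides in Cdca7, 20 in Stx6, 16 in Ing4, 8 in Calca, 4 in Trpv1 and 1 in Apoa2. The window of Stx6 held 3 Sp matches and an E-box, that of Ing4 a CRE at its first base, 2 Sp matches and an ETS match, and those of Apoa2, Calca and Trpv1 held no match to these letters.

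The gained regions were 8.52% of all merged regions and the pattern with the fourth highest count of the 15 possible ones. Regions found in the DCA list alone numbered 32017, those in all 4 lists 21035 and those in the SNA list alone 14825. The mirror pattern, a peak in both control lists and in neither axotomy list, held 410 regions (0.366%). The 4 lists were not of equal size or scaled depth. They held 50332 peaks for Sham, 74652 for SNA, 50667 for Lam and 89647 for DCA. The background pile-up recovered from the peaks' fold and p values was 1.68, 2.08, 3.04 and 5.20 reads in the same order. These levels include 1 scale factor per list (0.3153, 0.4000, 0.6104 and 0.9177), and before it they were 5.33, 5.20, 4.98 and 5.67 reads. Each axotomy list thus had a higher background than its own control after scaling, the level behind the p values. Before scaling the backgrounds were close, with SNA below Sham and DCA above Lam. With 1 list per surgery, scaled depth and surgery cannot be told apart. When every list was scaled to the lowest background there were 8417 gained regions against 488 in the mirror pattern, and when each axotomy list was scaled only to its own control, an alternative chosen after seeing the data, 9339 against 424. With each list cut to its 50332 strongest peaks the numbers were 3033 and 1359. At equal sizes, 2 of the 5 other pairs of lists shared more regions of their own, Sham with SNA 3226 and Lam with DCA 3051, and Sham with DCA (2222), SNA with Lam (2090) and the mirror pattern shared fewer. Of the 9560 gained regions, 2995 (31.3%) were still gained at equal list sizes and 8197 (85.7%) at equal background.

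**Figure D1:**
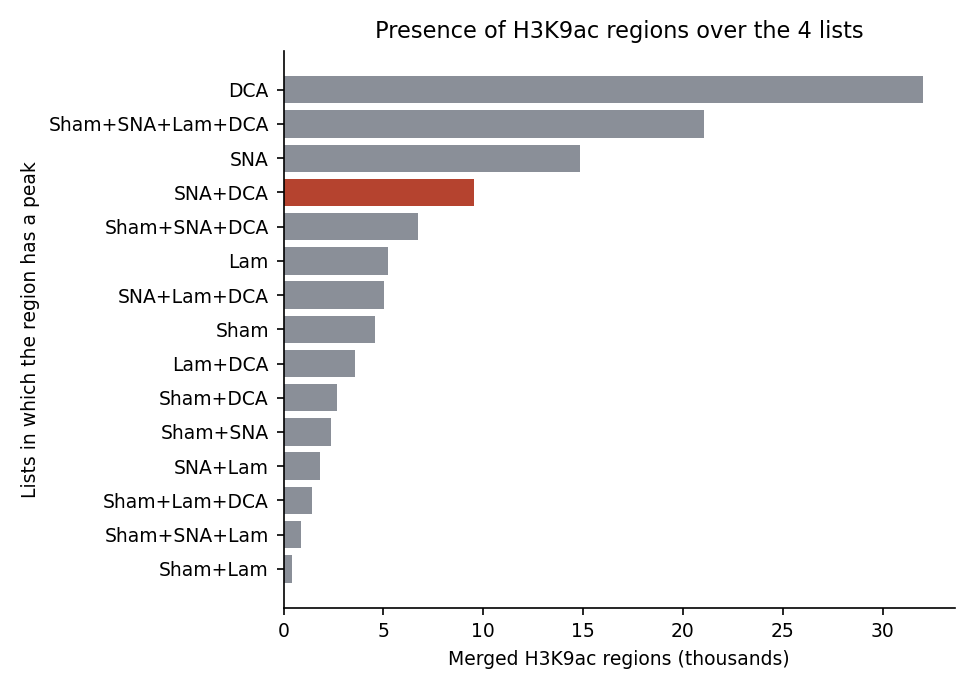
Number of merged H3K9ac regions (horizontal axis, in units of 1000) for each of the 15 combinations of lists in which a region had a peak (vertical axis). The bar of the 9560 gained regions is in red, and that of the 410 regions with a peak in Sham and Lam alone is the shortest.

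Peaks in gained regions were of modest strength. The authors' −log10 p, the evidence for a peak over its background within its own list, ran from 2.05 to 12.5 in SNA with a median of 4.20, and from 2.03 to 27.2 in DCA with a median of 6.63. Regions present in all 4 lists had medians of 6.89 and 13.1, and regions of 1 list only had medians of 3.50 in SNA and 5.84 in DCA. The authors' fold enrichment over background had a median of 3.31 in SNA and 3.22 in DCA for the gained regions, against 4.12 and 4.35 for regions of all 4 lists. Of the gained regions, 8032 (84.0%) had a q of 0.05 or lower in both lists. None was among the 1000 strongest peaks of either list, and 24 were among the 5000 strongest of SNA and 21 among those of DCA. The −log10 p was higher in DCA than in SNA for 87.5% of gained regions, whereas the fold was higher in DCA for 45.3%. The part of the higher background of the DCA list in the p values was not tested.

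**Figure D2:**
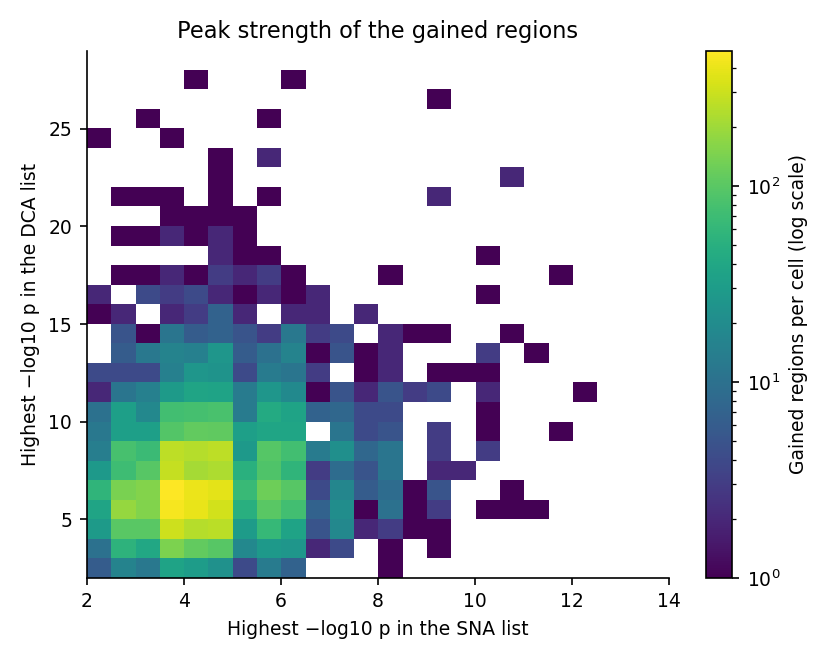
Gained regions counted by their highest −log10 p in the SNA list (horizontal axis) and in the DCA list (vertical axis), with the number per cell on a log colour scale. Most lie near the medians of 4.20 and 6.63, and the DCA values reach 27.2 where the SNA values end at 12.5.

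A gained region was usually a single peak at nearly the same place in both lists. Of the regions, 8860 (92.7%) held 1 SNA peak and 1 DCA peak, whose summits were a median of 112 bp apart, and 72.1% of these pairs lay within 200 bp. For regions of all 4 lists with 1 peak each in SNA and DCA, the summits were 110 bp apart and 68.6% lay within 200 bp. The width of gained regions ran from 219 to 3702 bp with a median of 609.5 bp. The median was 1442 bp for regions in all 4 lists, 297 bp for those in SNA only and 376 bp for those in DCA only. A merged region spans the peaks of each of its lists, so merging itself makes regions of more lists wider. Together the gained regions covered 6.46 Mb of the 83.2 Mb under any H3K9ac peak. They made up 7.34% of the H3K9ac regions of chromosome 16, the lowest share of any autosome, and 9.14% of those of chromosome 12, the highest.

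Gained regions often lay beside acetylation that the control lists already held. The median distance to the nearest Sham or Lam peak was 1336 bp, 4198 gained regions (43.9%, Wilson 95% interval 42.9 to 44.9) lay within 1 kb of one, and 1315 (13.8%) were 10 kb or more from any. The intervals given here cover counting error only. Within 1 kb lay 36.7% of regions in SNA only and 29% of those in DCA only. Gained regions at gene ends had a control peak within 1 kb in 55.1% of cases, those inside genes in 45.4% and those between genes in 35.1%. At the edge of the rule, 185 gained regions had a control peak within 50 bp (median −log10 p 4.20 in SNA and 6.45 in DCA), and 70 regions of the SNA and DCA lists fell outside through a control overlap of at most 50 bp (4.10 and 6.46). Gained regions also lay near each other, 43.1% of them within 10 kb of another one.

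**Figure D3:**
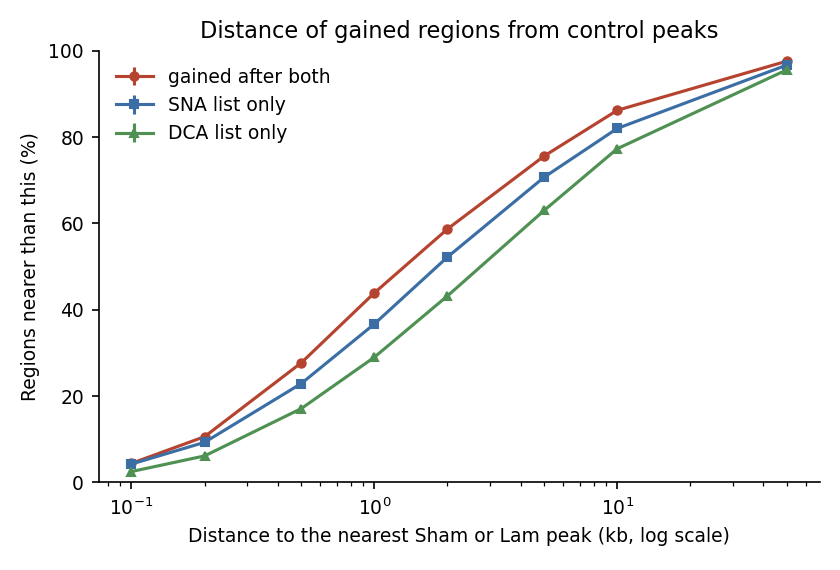
Share of regions (vertical axis, %) nearer to a Sham or Lam H3K9ac peak than the distance on the horizontal axis (kb, log scale), for gained regions and for regions of the SNA or the DCA list alone. Bars are Wilson 95% intervals, mostly smaller than the symbols, and the gained regions lie highest from 0.2 kb on, with 43.9% at 1 kb.

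By position, 982 gained regions (10.3%, interval 9.68 to 10.9) lay no more than 1 kb from an end of a protein-coding gene, 6293 (65.8%) inside a gene away from all ends and 2285 (23.9%) between genes. Regions of all 4 lists were at a gene end in 43.6% of cases. In other classes it was 7.36% for SNA only, 9.65% for DCA only, 10.1% for Sham with SNA, 10.0% for Sham with Lam and 22.4% for Lam with DCA. Over all merged regions the share was 17.3%, above that of the gained regions, and it was 17.5% for Sham with DCA and 40.6% for Sham, Lam and DCA. Put the other way, gained regions were 5.07% of all H3K9ac regions at gene ends (interval 4.77 to 5.39), 9.48% of those inside genes (9.26 to 9.71) and 8.64% of those between genes (8.31 to 8.99). Inside refers to the outermost ends of a gene, and 70 of the 6293 regions there (1.11%) overlapped a RefSeq start window, that is a start between those ends.

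Open chromatin was measured in other samples than H3K9ac and was not used to choose the regions. An ATAC peak of at least 1 surgery overlapped 5221 gained regions (54.6%, interval 53.6 to 55.6), against 57.0% of all merged regions, 88.2% of regions in all 4 lists, 44.3% of those in SNA only and 41.5% of those in DCA only. These classes differ in width, and a wider region meets peaks more easily. Within 250 bp of the midpoints the shares were 52.8%, 55.9%, 80.6%, 47.4% and 43.0% in the same order. The shares for the 4 separate ATAC lists lay close together, with 27.6% for Sham, 29.4% for Lam, 30.6% for DCA and 32.5% for SNA, and all merged regions gave the same order with 34.4%, 36.0%, 36.9% and 38.7%. Peaks of all 4 ATAC lists overlapped 1067 gained regions (11.2%), and 4339 (45.4%) met no ATAC peak at all. Only 3.03% had ATAC peaks in both axotomy lists and in neither control list, beside 2.40% of all H3K9ac regions. This combination of ATAC lists was thus rare among gained regions and among all H3K9ac regions alike.

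Gained regions met H3K27ac more often than regions of SNA or DCA alone, and about as often as some other pairs of lists. H3K27ac peaks of any surgery overlapped 66.4% of gained regions (interval 65.5 to 67.4), 59.0% of all merged regions, 67.4% of those in Lam with DCA, 66.0% of those in SNA with Lam, 39.0% of regions in SNA only, 36.0% of those in DCA only and 97.5% of those in all 4 lists. Within 250 bp of the midpoints the share was 64.8% for gained regions, 42.4% for SNA only, 37.2% for DCA only and 96.0% for all 4 lists. By surgery the share of gained regions, at their full width, was 19.0% for Sham, 20.5% for DCA, 41.0% for Lam and 47.6% for SNA. The H3K27ac list of SNA thus met more gained regions than that of Sham, and that of DCA fewer than that of Lam, so the H3K27ac shares did not follow the axotomies. The same order held in all H3K9ac regions, with 24.1% for Sham, 25.8% for DCA, 41.3% for Lam and 44.9% for SNA, and these H3K27ac lists held 43803, 46489, 67311 and 75824 peaks. H3K27ac peaks in SNA and DCA alone were found at 2.73% of gained regions, beside 1.84% of all H3K9ac regions. H3K27me3 peaks of any surgery were found at 15.0%, beside 16.2% of all H3K9ac regions.

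**Figure D4:**
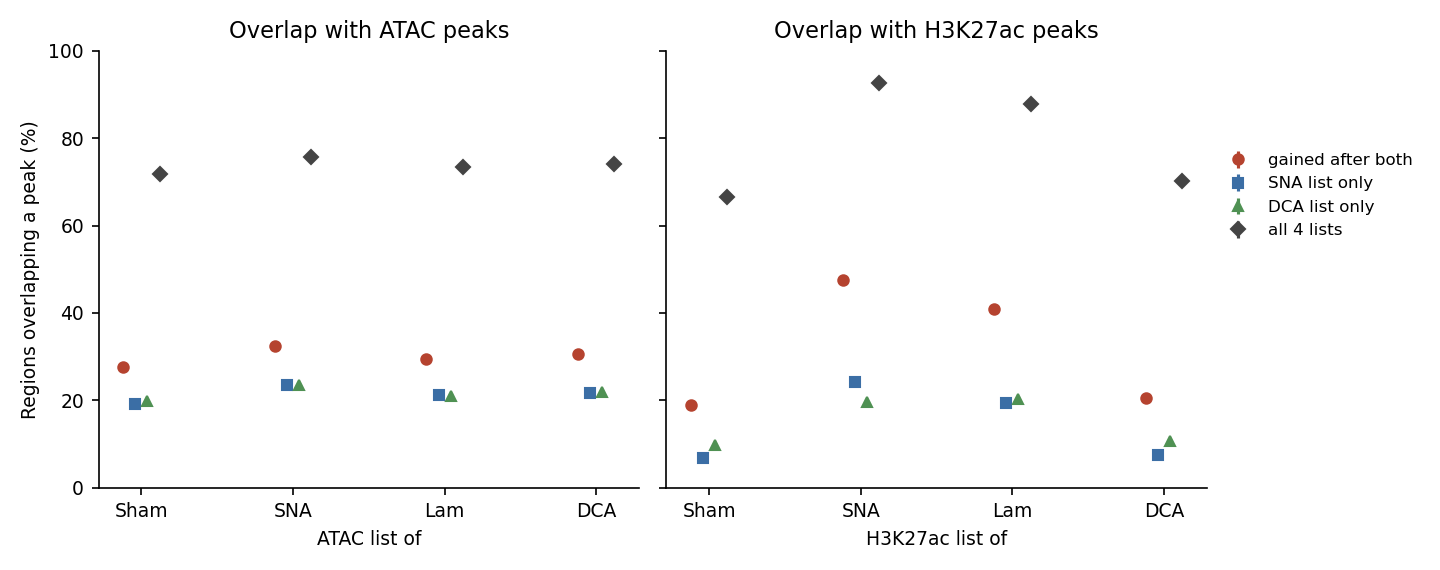
Share of H3K9ac regions (vertical axis, %) that overlapped an ATAC peak (left) or an H3K27ac peak (right) in the list of each surgery, with Wilson 95% intervals smaller than most symbols. ATAC shares of the gained regions lie between 27.6% and 32.5%, whereas H3K27ac shares are 47.6% and 41.0% in SNA and Lam and 19.0% and 20.5% in Sham and DCA.

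ATAC overlap was highest at gene ends. It was found for 710 of the 982 gained regions there (72.3%, interval 69.4 to 75), for 3244 of 6293 inside genes (51.5%, 50.3 to 52.8) and for 1267 of 2285 between genes (55.4%, 53.4 to 57.5). Peaks of all 4 ATAC lists covered 40.8%, 6.82% and 10.4% of the same classes. H3K27ac did not follow ATAC away from gene ends. At gene ends it was found for 72.3% of gained regions with ATAC and 65.8% without, but between genes for 68.5% with and 75.4% without (intervals 65.9 to 71.0 and 72.7 to 78.0), and inside genes for 62.8% and 65.1%. The median −log10 p in SNA was between 4.20 and 4.26 in all 6 classes. Distance to control peaks sorted the assays in opposite ways, since gained regions within 1 kb of a control peak overlapped ATAC in 48.7% and H3K27ac in 74.7% of cases, and those farther away in 59.2% and 59.9%.

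A gained region lay at an end of 1082 of 21887 protein-coding genes (4.94%). Most of these genes already carried the mark at an end, since 805 of them (74.4%) had a Sham or Lam peak within 1 kb of either end. Such a control peak lay at 11909 of all 21887 genes. Peaks of all 4 lists lay within 1 kb of the ends of 619 (57.2%), not necessarily in 1 region or at the same end, beside 41.9% of all genes. A gained region was at an end of 6.76% of genes with a control peak there and of 2.78% of the 9978 genes without one. The remaining 277 genes (1.27% of all) had no control peak at either end and are called newly marked here. Start sites were given for 79.9% of genes, and of the 1160 pairs of a gained region with a gene end, 508 (43.8%) were at the start, 403 at the far end and 249 at a gene without a given start. ATAC peaks of all 4 surgeries lay at 61.0% of the pairs at starts and 16.6% of those at far ends.

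The newly marked genes with the highest −log10 p were of varied known functions. Cdca7 had a gained region over its start (chr2:72475879-72477057) with a −log10 p of 10.5 in SNA and 18 in DCA and a fold of 5.25 and 5.49, and the nearest control peak was 115 kb away. ATAC peaks lay there in all 4 lists with folds between 2.63 and 3.72, and H3K27ac peaks in SNA and Lam. The start of Cdca7 was thus open after every surgery and had H3K27ac in 1 control list. Srfbp1, a partner of serum response factor on chromosome 18, had values of 11.2 and 13.4, with the nearest control peak 61.3 kb away, ATAC in all 4 lists and H3K27ac in Lam only. One region (chr2:128126049-128127295), with 8.88 and 11.1, lay at the start of Bcl2l11, which encodes the pro-apoptotic protein BIM, and at the far end of its neighbour Acoxl, an acyl-CoA oxidase relative, and a control peak lay 328 bp away. Zfp960, a zinc finger gene, had 9.08 and 8.77 at 170 kb from a control peak, Nudt13, a nudix hydrolase, 8.19 and 10.9 at 44.3 kb, Apoa2 7.60 and 10.4 at 0.431 kb and Nol6, a nucleolar protein, 9.08 and 7.56 at 7.46 kb. All 8 genes had ATAC peaks in all 4 lists.

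Other gene ends with high values in both lists lay at genes that the controls also marked. Stx6 (chr1:155158703-155159715) had a −log10 p of 9.11 in SNA and 26.6 in DCA, with a fold of 4.36 and 6.89, and ATAC in all 4 lists. The nearest control peak was 11.4 kb away, and the one that marks Stx6 in the controls was at its far end. Phb, which encodes a prohibitin of the mitochondrial membrane, had 10.2 and 12.4 at chr11:95666856-95667603, with 13.8 kb to a control peak. Near 0.5 kb or less from a control peak lay the regions at Timm21, a mitochondrial import subunit (10.9 and 14.1), Bcas3 (10.5 and 22.7), Rbm27, an RNA-binding protein (10.2 and 11.4), Ing4 (11.9 and 9.53), Snd1, a nuclease that binds RNA (9.51 and 12.4), Snx11, a sorting nexin (9.08 and 14.5), and Polr2f, a shared subunit of the RNA polymerases (9.08 and 12.7). These 7 regions sat beside control peaks, whereas those of Stx6 and Phb stood apart.

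Calca and Trpv1 were the sensory neuron genes newly marked at their starts. The gained region of Calca (chr7:114635666-114636440) had a −log10 p of 6.5 in SNA and 8.10 in DCA and lay 72.6 kb from a control peak. ATAC peaks lay at it in all 4 lists with folds of 1.89 to 2.56, H3K27ac in Lam, and H3K27me3 in Sham, SNA and Lam. That of Trpv1 (chr11:73233653-73234817) had 3.04 and 6.47, low in SNA, and lay 1.09 kb from a control peak, with ATAC in Sham, Lam and DCA. These were 2 of the 25 sensory neuron genes listed (8.00%, interval 2.22 to 25, beside 4.94% of all genes). In the same list, 2 other genes had a control peak at an end. Inside Trpv1, Ntrk2, Ntrk3 and Piezo2, the last 3 encoding the receptors TrkB and TrkC and a touch channel, gained regions lay away from the ends.

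Of 40 regeneration-associated genes, 1 had a gained region at an end (2.5%, interval 0.443 to 12.9, beside 4.94% of all genes). It was Jun, the AP-1 subunit induced by axotomy, with a −log10 p of 4.65 in SNA and 20.6 in DCA at chr4:95052571-95053310, 349 bp from the start. A control peak lay 16 bp away and the nearest region of all 4 lists 362 bp away. Atf3, Sox11, Sprr1a, Gal and Gap43, textbook genes of the axotomy response, had few H3K9ac regions of any kind within 10 kb, 4 for Atf3, 2 for Gap43, 1 for Gal and 0 for Sox11 and Sprr1a. None of these was gained, which so few regions leave without weight. Inside Klf7, Stat3, Smad1, Il6st and Lifr, transcription factors and cytokine receptors of the same list, gained regions lay away from the ends, in 5 of 40 genes (12.5%) beside 13.2% of all genes.

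Genes of satellite glia and Schwann cells had gained regions at an end in 6 of 22 cases (27.3%, interval 13.2 to 48.2). This stood beside 4.94% of all protein-coding genes and 6.76% of those with a control peak at an end. None of the 6 was newly marked, and 20 of the 22 genes had a control peak at an end. The −log10 p in SNA of the regions at their ends was between 2.86 and 5.14. Kcnj10, the potassium channel of satellite glia, had a −log10 p of 5.14 in SNA and 6.98 in DCA, and S100b, a calcium-binding glial protein, had 2 regions at its far end with 4.93 and 7, and 4.20 and 5.34. Sox2, a factor of glial progenitors, had 4.70 and 7.45 at its far end, Erbb3, the neuregulin receptor, 3.96 and 4.48, and Gjc3, a glial connexin, 2.86 and 8.77. Gained regions at glial genes were therefore additions near genes already marked in the controls. In the same lists the defining glial markers had H3K9ac peaks at their ends for 5 of 6 in every surgery, against 1 or 2 of 6 for sensory neurons, where Isl1, Scn9a and Avil were among those with none in any list. Over the whole list of 25 sensory neuron genes, 2 had a peak at an end in Sham, 2 in Lam, 3 in SNA and 7 in DCA, and 10 held H3K9ac regions inside, so the mark at their ends was sparse in a tissue labelled as sensory ganglion. The T cell markers Cd3e and Cd3g had no peak at an end, whereas Cd4 had one in Lam and DCA, and the muscle marker Ckm had one in Lam and DCA. The part of the cell mix in these counts was not tested.

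Among 24 immediate early genes, 5 had a gained region at an end (20.8%, interval 9.24 to 40.5), and 21 of the 24 had a control peak there. The share was 4.94% over all genes and 6.76% over genes with a control peak at an end. Jun is given above. Arc, which acts at synapses, had a −log10 p of 3.49 in SNA and 7.08 in DCA, Dusp1, a phosphatase of MAP kinases, 4.20 and 6.36, Maff, a bZIP factor, 3.53 and 7.77, and Per1, a clock gene, 3.10 and 5.16. The SNA values of these 4 genes were at or below the median of all gained regions, and the regions of Dusp1, Maff and Per1 lay at far ends. Macrophage genes had 1 of 20, Spi1, the factor PU.1 (4.93 and 6.12), and over the 20 macrophage genes 3 had a peak at an end in Lam, 5 in both Sham and SNA, and 8 in DCA. Endothelial, fibroblast and T cell genes had 3 of 20 (15.0%, interval 5.24 to 36.0). They were Kdr, a receptor of VEGF (5.70 and 9.53), and the collagen genes Col1a1 (4.32 and 7.15) and Col3a1 (3.50 and 4.50).

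Lists with long genes differed in how often gained regions lay inside the genes. Axon guidance genes, with a median length of 201 kb, had them inside in 15 of 36 cases (41.7%, interval 27.1 to 57.8) and at an end in 2, Ntn1 and Sema6a, and all genes, with a median of 17.2 kb, had them inside in 13.2% of cases. These shares count a gene once, however many H3K9ac regions it holds. In the guidance genes with most H3K9ac regions inside, gained ones were 8 of 80 in Sema6d, 4 of 49 in Slit3 and 4 of 47 in Nrp2. Over all regions inside genes the gained share was 9.48%. The 15 included the receptors Robo1, where a gained region overlapped a start window between the outermost ends, Nrp1, Nrp2 and Plxna1 and the ligands Slit3, Ntn1 and Sema6d. Synaptic adhesion genes, with a median length of 938 kb, had 10 of 40 inside (25%, interval 14.2 to 40.2) and 3 at an end (Nlgn3, Lrrtm4 and Cadm1). Ion channel genes, with a median of 321 kb, had 7 of 53 inside (13.2%), the share of all genes, and 2 at an end (3.77%). Of these, Kcna4 (chr2:107290485-107291047), a voltage-gated potassium channel, had its gained region over the start with 4.91 and 6.21, 316 kb from any control peak, and ATAC in all 4 lists. Histone acetylation enzymes had 10 of 28 inside, among them Crebbp, Kat6a and Hdac4, and 1 at an end, Kat2b, which encodes the H3K9 acetyltransferase PCAF (5.16 and 13.1, 171 bp from the start and 114 bp from a control peak). Translation and ribosome genes had 0 of 27 at an end and keratin genes 0 of 24, with intervals up to 12.5% and 13.8% that include the 4.94% of all genes.

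**Figure D5:**
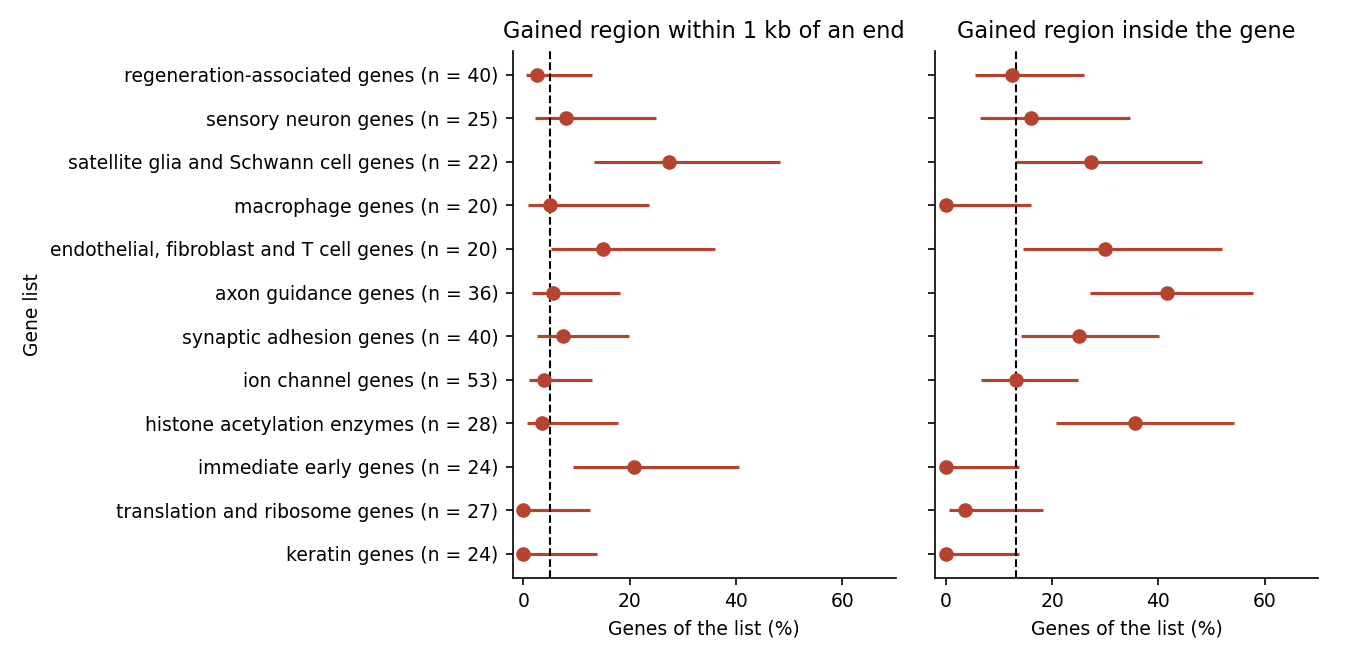
Share of the genes of each list (horizontal axes, %) with a gained region within 1 kb of an end (left) and inside the gene away from all ends (right), with Wilson 95% intervals and the number of genes in parentheses. Dashed lines are the shares over all 21887 protein-coding genes, 4.94% and 13.2%, and glial genes (27.3%) have the highest share on the left and axon guidance genes (41.7%) on the right. The shares count genes and take no account of gene length or of how many H3K9ac regions a gene holds.

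Inside genes, gained regions made up much the same share of the H3K9ac regions of long genes as of those of shorter ones. They were 9.58% of the H3K9ac regions inside genes of 100 kb or more (interval 9.27 to 9.89) and 9.41% inside shorter genes (9.10 to 9.73). They lay in 2881 genes (13.2%), whose median length was 63.4 kb. Of these, 307 genes held 5 or more, had a median length of 165 kb and contained 36.1% of the regions inside genes. Msi2, an RNA-binding translational regulator of 379 kb, held 22, which was 13.5% of its 163 H3K9ac regions. It was followed by Prkce with 19 and by Tead1, Fmnl2, Prkca and Syn3 with 17 each, genes for 2 protein kinase C isoforms, a Hippo pathway factor, a formin and a synapsin. Vps13d, a lipid transfer protein, held 16, and Ank3, the ankyrin of the axon initial segment, 16 of 74 (21.6%). Over these 8 genes the gained share ran from 11.5% in Syn3 to 21.6% in Ank3, beside 9.48% of all regions inside genes. The genes were chosen for holding most gained regions, which itself favours shares above 9.48%. All 8 genes had peaks of all 4 lists at their ends, counted over both ends together, beside 41.9% of all protein-coding genes. They were genes rich in H3K9ac of any pattern, with 74 to 163 regions inside each. The strongest single regions inside genes were those of Shc1, an adaptor of receptor tyrosine kinases (11.9 in SNA and 17.4 in DCA), Serpinb6b, a protease inhibitor (12.5 and 11.8), and Iffo2 (10.9 and 22.2). The regions of Shc1 and Serpinb6b overlapped RefSeq start windows of these genes, at starts between their outermost ends. Ext1, a heparan sulfate polymerase (10.3 and 16.3), Abca1, a cholesterol exporter (10.0 and 13.7), and Cdc14a, a phosphatase (10.0 and 13.0), came next.

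Between genes, the strongest gained regions had H3K27ac in all 4 lists in 5 of 6 cases. Among all 2285 gained regions between genes this held for only 169 (7.40%), so these 6 do not stand for the rest. The region nearest to Cd180, a receptor of B cells, lay 64.1 kb from it at chr13:102627727-102629452, with 10.0 in SNA and 13.8 in DCA, no ATAC peak and H3K27ac folds from 2.90 to 6.89. The region 8.06 kb from Sox10, the defining factor of glia and Schwann cells (chr15:79172553-79173216), had 9.08 and 9.79, no ATAC peak, and H3K27ac folds of 6.16 for Sham, 5.40 for Lam, 4.82 for SNA and 3.72 for DCA. A control H3K9ac peak lay 1.11 kb away. H3K27ac was thus present at this place after every surgery. Others were nearest to Mvb12b (9.11 and 21.7), Map3k4 (9.08 and 12) and the predicted gene Gm52512 (10.0 and 11.1), the last with ATAC in all 4 lists and H3K27ac in SNA and Lam only.

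In CpG content, promoter windows in gained regions were nearer to those with the mark in every list than to those without it. Of 21263 RefSeq windows of 17492 genes, 293 windows of 274 genes overlapped a gained region and no Sham or Lam peak, and are called gained windows. They held a median of 16 CpG (quartiles 7 and 24). The median was 19 in the 4463 windows with peaks of all 4 lists and 3 in the 9109 windows without any H3K9ac peak. The remaining 7398 windows had a peak in at least 1 list, held a median of 23 and are called other marked windows. Some windows with peaks of all 4 lists, such as that of Snx11, also met a gained region. Windows with fewer than 5 CpG, such as those of Apoa2 and Trpv1 printed above, were 13.0% of the gained ones (interval 9.6 to 17.3). They were 4.08% of those in all 4 lists, 5.50% of other marked windows and 59.4% of those without any peak. By median and by this share, gained windows were poorer in CpG than both other classes with the mark. Sp letters were in 56.7% of gained windows, 58.1% of those in all 4 lists, 71.5% of other marked windows and 46.2% of all windows. ETS letters were in 12.3% of gained windows (9.01 to 16.5), 24.2% of those in all 4 lists, 14.2% of other marked windows and 11.6% of all. CCAAT letters, which were not put in capitals, were in 46.4% of gained windows (40.8 to 52.1). The shares were 35.0% for windows in all 4 lists, 36.8% for other marked windows and 38.2% for all. AP-1 letters were in 5.12% of gained windows (3.13 to 8.27) and 4.66% of all, CRE letters in 2.73% (1.39 to 5.29) and 2.23%, E-box letters in 9.22% and 7.84%, and TATA letters in 6.14% and 12.6%. All motifs were searched on both strands, and none contains another. ATAC peaks of all 4 surgeries overlapped 67.2% of the gained windows, 87.7% of those in all 4 lists, 82.6% of other marked windows and 14.6% of those without H3K9ac.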

How the data were processed

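The 16 lists of peaks, 4 for each assay, were deposited by the authors with replicates pooled, per the labels. Per the submitters' processing notes the build was mm10, and the aligner, peak caller and filters are not given in the sources used here. Values used are the deposited fold enrichment (a linear ratio over background), the −log10 p and the −log10 q of each peak, and the summit position. The deposited integer score was not used. They are the authors' values and describe peaks within a list. Ranks in the H3K9ac peak names ran to 65573 (Sham), 68058 (Lam), 101981 (SNA) and 173439 (DCA), above the number of peaks, so the lists are parts of longer ones.

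Lists were merged at 1 bp of overlap with Python 3.11.15, numpy 2.4.6, pandas 2.3.3 and SciPy 1.17.1, checked on simulated lists. Read totals are not in the lists, so depth was recovered: fold was read as (pile-up + 1)/(background + 1) and p as a Poisson tail, and a whole number of reads at 1 scale factor per list matched 100.00% of H3K9ac peaks within 0.003. The background is the lowest level, after the scale factor, that 5% or more of the peaks share. Genes were the protein-coding ones of RefSeq GRCm38.p6 (the mm10 build), without exons. Shares have Wilson 95% intervals for counting error. There was no replicate list, so no test was run.

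Named regions were ranked by the lower of their SNA and DCA −log10 p: the first 12 at gene ends, 6 in genes, 6 between genes and 8 newly marked genes, 8 genes holding most, members of the regeneration, neuron, glia and macrophage lists at gene ends, and Atf3, Jun, Sox11, Sprr1a, Gal and Gap43. Other genes were named after their values were seen. A few genes that the rule names are not reported here. Members, lists and tests were chosen with earlier results of these data known. Alternatives varied the q limit, list size, depth, control distance, merging, windows and gene ends.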

Additional observations from a re-analysis of the deposited data

How the results depend on the processing

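Of 49 values under alternative settings, 19 stayed near the main value and 30 moved by more than their interval or by over 1.5 times. The main values were 9560 gained regions, 10.3% at a gene end, 65.8% inside genes, 54.6% with ATAC, 66.4% with H3K27ac and 1082 genes with a gained region at an end. Equal list sizes gave 3033 regions, 12%, 63.8%, 57.7%, 78.5% and 414 genes. No control peak within 1 kb left 5362 regions, 8.22%, 64.1%, 59.2%, 59.9% and 476 genes. An H3K9ac −log10 q of at least 2 gave 9450 regions, of which 3627 were among the original ones, and 14.7%, 62.1%, 66.0% and 83.7%. Merging across gaps of up to 500 bp gave 6426 regions, 8.22%, 64.4%, 62.4%, 60.1% and 604 genes. The H3K27ac share was 68.4% at matched depth and 68.0% when merging needed 100 bp of overlap. Gene ends of 5 kb gave 25.9%, 54.7% and 2740 genes. A window of 250 bp to each side of each region's midpoint gave 52.8% with ATAC and 64.8% with H3K27ac. A −log10 q of at least 5 in those assays gave 15.2% and 28.8%. The cause of these moves was not tested beyond the settings' own construction. Scaling to a lower background used each peak's expected reads, without the scatter of sampling. No paired analysis was possible because each list pools the replicates of a condition, and for the same reason no replicate could be left out. Absence of a peak means that none was listed at that depth, not that the mark was absent.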
